A study of Mus musculus with 4 samples.

Results

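Pachytene spermatocytes are the meiotic germ cells of the testis whose homologous chromosomes are fully paired, and they were picked here by a gate on single-cell counts. A cell barcode entered the gate when it had at least 500 detected genes, at most 20% mitochondrial counts, at least 5 unique molecular identifiers (UMIs, each one captured mRNA molecule) of Ldhc and Fabp9 together, and under 0.3% of its UMIs from the Sertoli cell genes Aard, Cst9 and Cldn11. Ldhc encodes the sperm form of lactate dehydrogenase, and Fabp9 encodes a lipid-binding protein of sperm. The gate held 401 cells of the 24851 deposited barcodes, of which 221 came from testis tissue after 7 days of organ culture and 180 from testes taken at 14 days postpartum (dpp).

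The series compared cultured with uncultured mouse testis in 4 single-cell RNA sequencing libraries, 1 per group, and its title names an inflammatory response of the cultured organ. Per the labels, every library came from the strain Acr-Gfp tg mouse (C57BL/6), so the control tissue carries the Acr-Gfp transgene too. The cultured groups were 7 dpp testes cut into fragments and kept for 2 or 7 days on agarose under a PDMS ceiling chip in α-MEM with AlbuMAX, and the uncultured groups were, by their titles, testes at 9 dpp and at 14 dpp. The growth text describing this culture is given for the uncultured libraries too and was taken as carried over. The labels give neither the number of animals nor any pooling, and the library preparation text mentions gonads of females, which no other label does.

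In the first wave of spermatogenesis a first cohort of germ cells enters meiosis nearly together, while others remain spermatogonia or enter later, so a young testis holds no stage later than the one this cohort has reached. In early prophase of meiosis the chromosomes break, search for their partners and zip together along the synaptonemal complex. At pachytene pairing is complete, the unpaired X and Y are silenced in the sex body, which is called meiotic sex chromosome inactivation, and many genes for the acrosome, the flagellum and testis forms of metabolic enzymes are switched on ahead of their use in sperm. The transcription factor MYBL1, also called A-MYB, is a known activator of pachytene genes and of pachytene piRNA precursors.

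The 4 libraries held 5149 to 7710 deposited barcodes and 34491701 to 60829941 UMIs each, and 23670 barcodes passed the filter on genes and mitochondrial counts. With 1 library per group no test between groups was possible and no difference below has a replicate check, so culture and library cannot be told apart. All 95% intervals cover counting error only. The 7-day culture and 14 dpp libraries shared 50 barcode sequences, none of them in the gate in both libraries. Scrublet, a doublet caller, marked 5 of the 221 and 2 of the 180 cells, which were kept.

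The gate opened only in the older library of each kind. It held 221 of 4909 filtered barcodes in the 7-day culture, a share of 4.50% (exact Clopper-Pearson interval 3.94% to 5.12%), and 180 of 6338 at 14 dpp, a share of 2.84% (2.44% to 3.28%). In the 2-day culture it held 0 of 7130 barcodes, which allows a share of up to 0.0421% at 3 counts of the total (exact Clopper-Pearson upper bound 0.0517%), and at 9 dpp 0 of 5293, which allows up to 0.0567% (0.0697%). The most Ldhc and Fabp9 UMIs in a single barcode of these younger libraries were 3 and 4. Because the gate reads the 2 genes that it counts, these shares are descriptions.

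The cells ranged widely on the gate's own genes. Their Ldhc and Fabp9 UMIs had a median of 21 in culture, with a highest value of 541, and a median of 77.5 at 14 dpp, with a highest value of 1198. Per 10000 UMIs of the cell the medians were 16.7 and 61.4. Exactly 5 UMIs, the lowest value that enters, were found in 15 and 11 cells, and exactly 4, the highest value that does not, in 28 and 10 barcodes. UMIs of both genes were present in 211 of the 221 cells and 175 of the 180. The Sertoli gene limit removed 16 and 43 barcodes that had passed the other criteria.

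**Figure D1:**
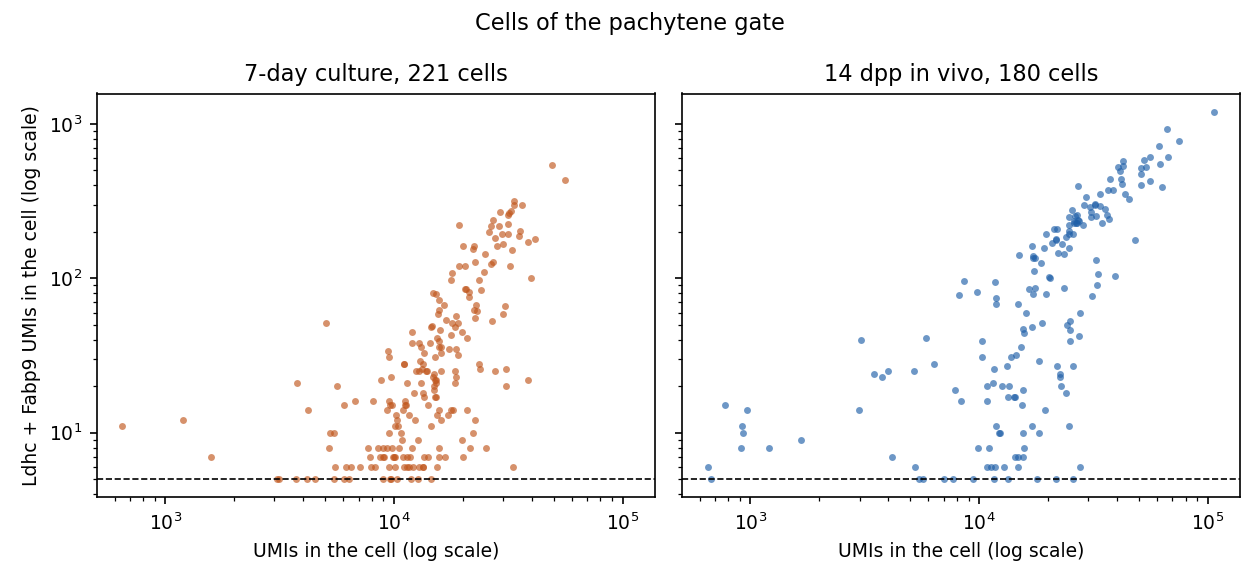
Each point is 1 cell of the pachytene gate, with its total UMIs on the x axis and its Ldhc and Fabp9 UMIs on the y axis, both on log scales, in the 7-day culture (left, 221 cells) and at 14 dpp (right, 180 cells). The dashed line is the minimum of 5 UMIs, and the cells at 14 dpp reach 1198 UMIs of the gate genes against 541 in culture.

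Both markers that the gate did not read were present. Piwil1, which encodes the Piwi protein MIWI that binds pachytene piRNAs, had 269 CPM in culture (252 to 286) and 506 CPM at 14 dpp (484 to 528), against 3.52 and 6.64 CPM (UMIs per 1000000 UMIs of the summed cells) in early prophase cells of the same libraries. Acr, the gene of the acrosomal protease acrosin whose promoter names the transgene, had 36.3 CPM in culture (30.4 to 42.96) and 70.3 CPM at 14 dpp (62.4 to 78.9), against 0.0765 and 0.135 CPM. For this comparison an early prophase gate took barcodes with no Ldhc or Fabp9 UMI and at least 10 UMIs of Sycp1, Sycp3, Syce2, Hormad1 and Smc1b, and it held 1617 cells in culture and 2709 at 14 dpp. It set no limit on spermatogonial genes, so it may also hold germ cells from before prophase. In it 18 spermatogonial markers summed to 2930 and 3145.5 CPM, against 492 and 372 CPM in the pachytene gate. Every ratio against early prophase cells is a ratio to this gate. A Sertoli gate, with at least 0.5% of UMIs from the Sertoli genes, held 535 and 1088 cells. Acr was detected in 31.7% of pachytene-gate cells in culture and 53.9% at 14 dpp, with 0.561% and 0.827% of Sertoli-gate cells as the background. The gates differed in depth, since pachytene-gate cells had medians of 14906 and 19930 UMIs, Sertoli-gate cells 9391 and 10420, and early prophase cells 6740 and 6310. With every cell thinned to 3000 UMIs, which left out 3 of 221 and 10 of 180 cells, Acr was detected in 7.34% and 17.6% of pachytene-gate cells and in none of 490 and 975 Sertoli-gate cells. Piwil1 after thinning was detected in 35.8% and 61.2% of pachytene-gate cells, against 0.816% and 1.54% of Sertoli-gate cells. At 3000 UMIs the median cell of the pachytene gate had 1575.5 detected genes in culture and 1608 at 14 dpp, against 1660 and 1640 in early prophase cells.

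Markers of later germ cells were almost absent. Of 15 spermatid genes, 9 had no UMI in the cultured cells and 12 none at 14 dpp, and the 15 together had 12 and 13 UMIs. Prm1, the protamine that packs sperm DNA, was at 0 UMIs in both. Markers of other testis cells were low but not equal between the libraries. The 19 Sertoli genes summed to 541 CPM in culture and 852 CPM at 14 dpp, against 30824 and 40484 CPM in the Sertoli gate, and their median share per cell was 0.0520% (range 0% to 0.331%) and 0.0554% (0% to 1.09%). Ctsl, which germ cells also express, made up 426 and 256 CPM of these sums. Aard had 32.7 and 127 CPM, Cst9 12.5 and 89.4, Cst12 12.3 and 91.1, and 2 and 1 of the 19 genes were at 0. Leydig, stromal, myoid, endothelial and macrophage lists summed to 30.3, 113, 49.6, 7.63 and 4.91 CPM in culture and 64.95, 83.9, 22.5, 4.85 and 6.30 CPM at 14 dpp. The part of such RNA in the results below was not tested.

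The X and Y chromosomes were low in the gate, which had not read their genes. X-linked genes gave 0.584% of the nuclear-encoded UMIs of the gate in culture (0.576% to 0.592%) and 0.359% at 14 dpp (0.353% to 0.365%). In early prophase cells the share was 2.69% and 2.62%, and in Sertoli-gate cells 3.99% and 5.002%. The log2 ratio of pachytene to early prophase cells was −2.21 and −2.86 for the X, whereas it lay between −0.13 and 0.24 for each of the 19 autosomes in culture and between −0.14 and 0.30 at 14 dpp. Y-linked genes gave 0.0185% and 0.00713% of UMIs, against 0.0642% and 0.0540% in early prophase cells. The X-linked share per cell had a lowest value of 0.0405%, a median of 0.454% and a highest value of 4.03% in culture, and 0%, 0.252% and 2.69% at 14 dpp. It was under 1% in 183 of 221 and 163 of 180 pachytene-gate cells, but in 0 of 1617 and 3 of 2709 early prophase cells. In 8 and 3 cells of the gate it was 2% or more. With Sertoli genes allowed up to 1% of UMIs, the summed shares were 0.7155% and 0.6142%.

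**Figure D2:**
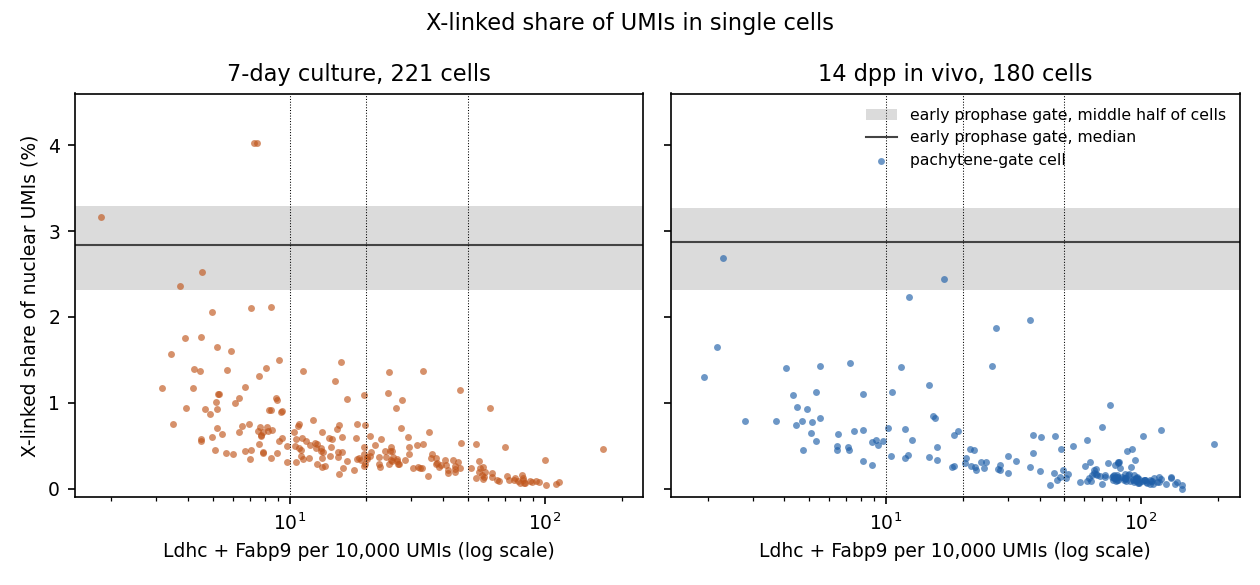
Each point is 1 pachytene-gate cell, with its Ldhc and Fabp9 UMIs per 10000 UMIs on a log x axis and the X-linked share of its nuclear UMIs in percent on the y axis, for the 7-day culture (left) and 14 dpp (right). The grey band and line are the middle range (25% to 75%) and median of early prophase cells, dotted lines mark the bins at 10, 20 and 50, and 183 of 221 and 163 of 180 points lie under 1%.

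Gene by gene, 402 X-linked genes could be compared with early prophase cells. Of these, 229 (57.0%) were lower by 2-fold or more in both libraries and 1 was higher, while 1497 of 10399 autosomal genes (14.4%) were lower and 988 higher. Every gene ratio here is on the scale of log2(CPM + 10), which understates the difference for genes with few UMIs. Taf7l, the germ cell form of a TFIID subunit, had 95.4 CPM in culture (85.7 to 106) and 35.9 CPM at 14 dpp (30.3 to 42.1), against 807 and 728 CPM in early prophase cells. Rhox13, a germ cell homeobox gene, had 62.4 and 21.3 CPM against 373 and 328, and the meiotic crossover gene Tex11 had 15.3 and 9.21 CPM against 193 and 182. On these sums each of the 3 had the higher level in culture, but within the 4 bins of gate genes used below Rhox13 and Tex11 were lower in culture in 3. The X-linked UMIs of the gate were unevenly spread. Ndufa1, a subunit of respiratory complex I, alone gave 10.98% and 11.14% of them, with 614 CPM in culture (588 to 639) and 387 CPM at 14 dpp (369 to 407), against 414 and 373 CPM in early prophase cells. No other annotated transcript matched its last 600 bases at 95% identity over 100 bases. Prdx4, a peroxiredoxin of the endoplasmic reticulum, followed with 288 and 196 CPM, against 571 and 537. The single X-linked gene 2-fold or more above early prophase in both libraries was Tsga8, a testis gene known from spermatids. It had 49.9 CPM in culture (42.9 to 57.7) and 56.7 CPM at 14 dpp (49.7 to 64.5), against 2.83 and 1.93 CPM, a log2 ratio of 2.22 and 2.48.

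Several X-linked housekeeping genes have an autosomal relative that is used in the testis, and 10 such pairs were in the files. In all 10 the X-linked gene had the lower level in the gate than in early prophase cells, in both libraries. This is not particular to the pairs, since the 402 X-linked genes compared had median log2 ratios of −1.20 and −1.37. Pdha1, a subunit of pyruvate dehydrogenase, had 1.36 and 2.42 CPM against 24.7 and 26.4, and its copy Pdha2 had 545 and 621 CPM against 45.05 and 29.9. Rbmx, an RNA-binding protein gene, had 4.63 and 2.42 CPM against 23.6 and 16.6, and its copy Rbmxl2 had 615 and 328 CPM against 139 and 76.8. For the ribosomal proteins, Rpl10 had 70.6 and 51.9 CPM against 601 and 580, and Rpl10l had 171 and 272 CPM against 35.8 and 57.7. Rpl39 had 109.8 and 114.2 CPM against 482 and 786, and Rpl39l had 1235 and 1129.9 CPM against 361 and 347. Cetn1, a centrin, had 221 and 617 CPM against 3.75 and 4.44. Not every relative was higher. Slc25a31, the testis ADP/ATP carrier, had 544 and 544 CPM against 612 and 614. Utp14b, a copy of a ribosome assembly gene, was lower in the gate, with 8.18 and 6.79 CPM against 26.9 and 19.1, and Ubl4b had 0 UMIs. Rpl10l shares a stretch of 263 bases at 98.1% identity with the transcript Gm14460, so its counts are uncertain.

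Of all 10810 genes compared with early prophase cells, 989 (9.15%) were higher by 2-fold or more in both libraries and 1730 (16%) were lower, and 229 X-linked and 4 Y-linked genes are among the lower ones. The median gene had a log2 ratio of −0.36 in culture and −0.35 at 14 dpp, and ratios are to be read against it. TMM factors moved this median by 0.19 and 0.18 and gave 1330 higher and 1268 lower genes, so that higher genes were 51.2% of the calls in place of 36.4%. Since both gates were drawn on expression, these counts describe the gates and are no test.

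Of the 34 measured genes of a pachytene onset list, 30 were higher by 2-fold or more in both libraries and none lower, with medians of 2.66 and 3.14. The list was chosen with results of these data known and is not independent evidence. With the gate genes left out, Meig1 stood first. It encodes a protein needed to build the sperm flagellum and had 2435 CPM in culture (2385 to 2486) and 3594 CPM at 14 dpp (3536 to 3652), against 24.2 and 20.5 CPM in early prophase cells, a log2 ratio of 6.16 and 6.88. Rsph1, a radial spoke protein of the axoneme, had 2139 CPM in culture (2092 to 2187) and 2679 CPM at 14 dpp (2629 to 2729), against 37.6 and 16.1 CPM. Hspa2, the testis chaperone that desynapsis and the end of prophase depend on, had 1758 CPM in culture (1715 to 1801) and 2387 CPM at 14 dpp (2340.3 to 2435), against 101 and 76.4 CPM. Pdcl2, Gml, Cox8c, Gstt2, Dkkl1, Spata4 and Piwil1 were also among the 15 highest, the other members being 1700008K24Rik, 1700102P08Rik, BC049730, 1700010I14Rik, 1700029M20Rik and Gm4763. Their log2 ratios ran from 4.37 to 5.33 in culture, below Meig1 and Rsph1. Mybl1 itself had 80.7 CPM in culture (71.7 to 90.4) and 78.8 CPM at 14 dpp (70.4 to 87.8), against 15.5 and 12.03 CPM. The 4 measured genes that did not reach 2-fold in both were Calr3, Cpeb1, Slc25a31 and Tbpl1, of which Tbpl1, a TBP-like factor, had 284 and 284 CPM against 157 and 148. Some textbook pachytene genes had very few UMIs: Hist1h1t, the testis linker histone, had 5.18 and 3.39 CPM, Ccna1, the meiotic cyclin A, 4.09 and 4.12, and Pgk2 5.997 and 12.4.

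The promoters of 4 genes are shown because these genes mark the gate or stand out in it: Ldhc as a gate gene, Piwil1 as its marker, Hspa2 as a highly expressed member of the onset list, and Tsga8 as the X-linked gene 2-fold or more above early prophase. The windows run from 250 bases before to 50 bases after a RefSeq start on GRCm38.p6, 5′ to 3′ on the gene's strand. Capitals mark matches to the MYB core motif, CAACNG or TAACNG on either strand. The Piwil1 window lies 33722 bases inside the start of the longest GENCODE model of the gene. The windows are chr7:46861013-46861312 on the plus strand, chr5:128735996-128736295 on the plus strand, chr12:76404120-76404419 on the plus strand and chrX:83487875-83488174 on the minus strand.
Ldhc: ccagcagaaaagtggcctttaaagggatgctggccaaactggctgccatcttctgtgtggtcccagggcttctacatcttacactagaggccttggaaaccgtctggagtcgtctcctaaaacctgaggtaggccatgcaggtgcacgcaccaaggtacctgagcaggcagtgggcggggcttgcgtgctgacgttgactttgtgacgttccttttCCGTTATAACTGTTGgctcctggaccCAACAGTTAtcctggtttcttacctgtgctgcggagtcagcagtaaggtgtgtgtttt
Piwil1: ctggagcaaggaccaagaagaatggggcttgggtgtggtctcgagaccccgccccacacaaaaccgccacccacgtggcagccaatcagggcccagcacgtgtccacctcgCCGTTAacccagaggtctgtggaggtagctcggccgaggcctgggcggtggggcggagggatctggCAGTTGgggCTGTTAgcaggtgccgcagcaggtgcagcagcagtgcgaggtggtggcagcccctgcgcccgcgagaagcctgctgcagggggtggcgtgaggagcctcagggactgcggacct
Hspa2: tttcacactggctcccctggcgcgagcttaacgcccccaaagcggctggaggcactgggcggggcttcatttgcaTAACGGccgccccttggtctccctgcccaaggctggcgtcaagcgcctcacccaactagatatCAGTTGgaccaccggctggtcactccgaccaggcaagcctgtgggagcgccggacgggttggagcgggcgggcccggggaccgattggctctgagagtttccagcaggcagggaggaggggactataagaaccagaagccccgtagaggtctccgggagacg
Tsga8: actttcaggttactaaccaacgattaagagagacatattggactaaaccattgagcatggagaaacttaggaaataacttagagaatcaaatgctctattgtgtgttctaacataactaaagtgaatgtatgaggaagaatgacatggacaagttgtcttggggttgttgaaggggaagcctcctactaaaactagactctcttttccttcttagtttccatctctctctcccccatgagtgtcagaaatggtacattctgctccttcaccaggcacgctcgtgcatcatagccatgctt
Ldhc held 5 matches, overlapping or side by side in 2 runs, Piwil1 held 3, Hspa2 2 and Tsga8 0. None of the windows held the full cyclic AMP response element TGACGTCA. Fabp9, Acr, Mybl1 and Rsph1 have no entry.

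Across all genes, a MYB core match was present in 48.4% of 19370 promoter windows of this length, 1 per gene. It was present in 508 of 775 windows (65.5%) of the genes higher in the pachytene gate, in 550 of 1389 (39.6%) of the genes lower in it, and in 46.6% of 8523 windows of all genes compared. For the onset list it was 18 of 34 (52.9%), against the 48.4% of all windows. The cyclic AMP element was present in 3.23% of the windows of higher genes, 4.18% of lower genes and 3.66% of all genes compared. A match is a string of letters and not a bound site.

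Genes for parts of the future sperm were expressed. Against 9.15% of all genes higher and 16% lower, the acrosome and sperm surface list had 13 of 14 measured genes higher in both libraries, with medians of 2.23 and 2.94. Adam2, a sperm surface protein, had 150.2 and 235 CPM against 0.612 and 0.763, and Spink2, a protease inhibitor of the acrosome, had 84.8 and 322 CPM against 2.45 and 1.84. Izumo1, the sperm-egg fusion protein, had 0.818 and 0.727 CPM, and Acrv1 was at 0. The flagellum and cilium list had 16 of 19 genes higher, with medians of 2.13 and 2.53. Tekt1, a tektin filament gene, had 157 and 252 CPM against 2.37 and 2.20, and Spag16, of the axoneme's central apparatus, 84.2 and 91.4 CPM against 1.22 and 0.494.

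Metabolic enzymes differed between paralogues. Of 13 measured testis forms 10 were higher in both libraries and none lower, and of 17 widely expressed forms 10 were lower and 1 higher, where all genes had 9.15% higher and 16% lower. Cox6b2, the testis form of a cytochrome oxidase subunit, had 1427 and 1201 CPM against 58.4 and 51.7, and Cox8a, the somatic form of another subunit, had 60.2 and 67.4 CPM against 489 and 519. The exception was Ldha, the muscle-type lactate dehydrogenase, with 192 CPM in culture (178 to 207) and 569 CPM at 14 dpp (546 to 593), against 18.2 and 16.2 CPM. Ldha is a paralogue of the gate gene Ldhc, but no transcript of Ldhc matched its last 600 bases at 95% identity over 100 bases, while 6 other annotated genes did. Pgam2, a testis and muscle phosphoglycerate mutase, had 14.99 and 108 CPM against 0.0765 and 0.269, and its widely expressed paralogue Pgam1 had 19.9 and 39.3 CPM against 167 and 224.

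**Figure D3:**
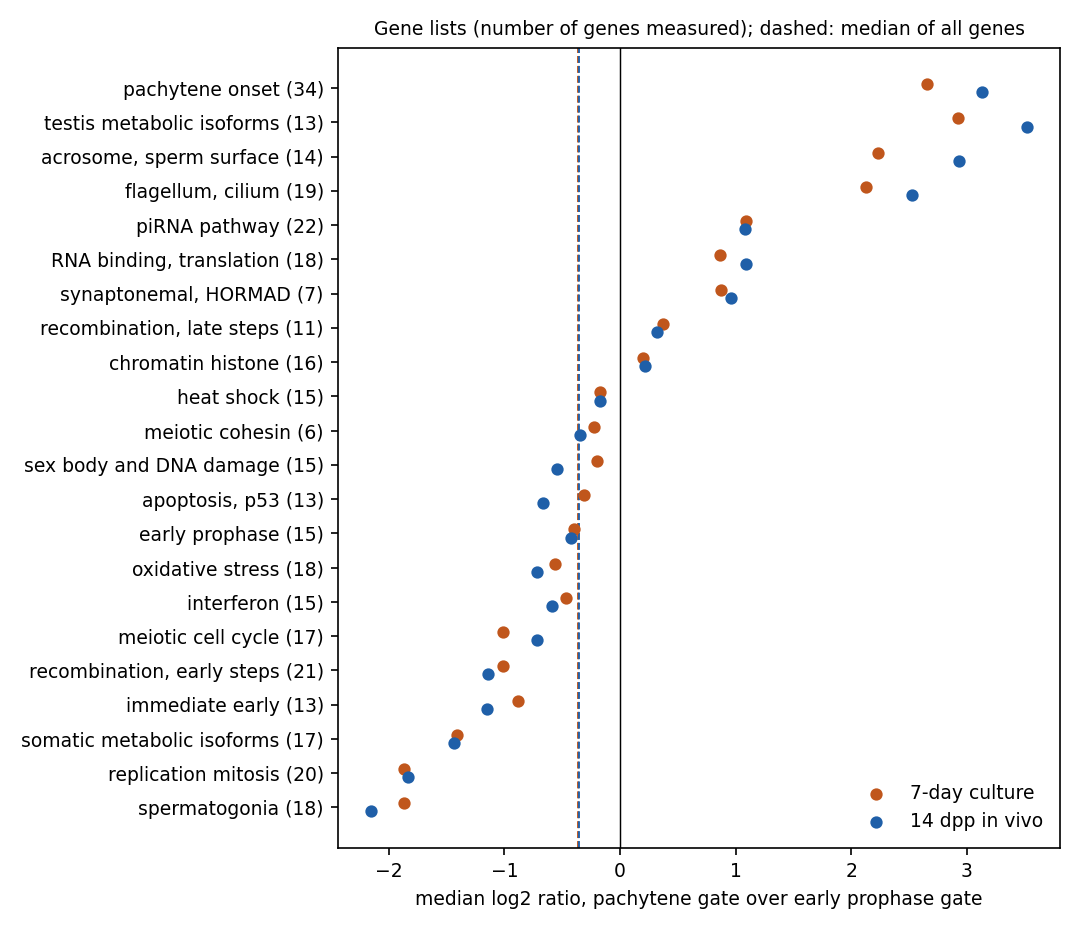
For 22 gene lists, the median log2 ratio of the pachytene gate over the early prophase gate is on the x axis, with 1 point for the 7-day culture and 1 for 14 dpp. The dashed lines, which coincide, are the medians of all 10810 genes (−0.36 and −0.35), and the lists run from 2.92 and 3.52 for testis forms of metabolic enzymes to −1.87 and −2.15 for spermatogonia.

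In the piRNA pathway, which makes the small RNAs that Piwi proteins bind, 12 of 22 measured genes were higher in both libraries and none lower, beside 9.15% and 16% of all genes. Besides Piwil1, Tdrd5, a germ granule protein, had 141 and 219.8 CPM against 20.6 and 23.9, and Mael 1368 and 1608 CPM against 589 and 558. Rnf17 was at 164 and 175 CPM against 136 and 133. Among RNA-binding and translation factors 9 of 18 were higher and none lower. Ybx2, a protein that stores mRNAs for later translation, had 415 and 801 CPM against 16.3 and 14.3, whereas Dazl, an RNA-binding protein of germ cells from spermatogonia on, had 1871 and 1405 CPM against 1967 and 1865.

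The counts of the meiotic lists stand beside 9.15% of all genes higher and 16% lower. Of 7 measured genes of the synaptonemal complex and HORMAD list that neither gate read, 2 were higher in both libraries and 1 lower, and with TMM factors 5 were higher and 1 lower. Sycp2, an axis protein, had 737 and 769 CPM against 265 and 227. Of 21 genes of early recombination 11 were lower and 6 higher. Prdm9, which sets the places of DNA breaks, had 3.82 and 0.727 CPM against 48.3 and 48.5, and the strand exchange gene Dmc1 67.6 and 38.5 against 147 and 111. Spo11, which cuts the DNA and is known for a later splice form without that role, was higher, with 59.7 and 63.5 CPM against 20.04 and 17.1, and 3′ counts do not separate the forms. Of 11 genes of the later steps 3 were higher and 2 lower. Msh4, which stabilises crossover intermediates, had 37.6 and 41.4 CPM against 7.04 and 5.97. Of 15 genes of the sex body and DNA damage signalling list 1 was higher and 4 lower, and TMM factors changed the sign of the list's median in culture. The higher gene was H2afx, the histone whose phosphorylated form covers the sex body, with 908 CPM in culture (878 to 939.8) and 664 CPM at 14 dpp (639 to 689), against 105 and 69.5 CPM.

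Genes of meiotic entry and of spermatogonia led those lower in the gate. Stra8, the gene that starts meiosis in response to retinoic acid, had 23.7 CPM in culture (18.99 to 29.2) and 25.2 CPM at 14 dpp (20.6 to 30.5), against 874 and 771 CPM, the lowest of the genes compared when ranked by the smaller of the ratios. Dmrt1, a regulator of spermatogonia, Nmt2, Gsr, Nxf2, Gm10439, Crabp1, Usp26, Tex15 and Hmgb3 followed, and 4 of these 10 genes, Nxf2, Gm10439, Usp26 and Hmgb3, are X-linked. Of 18 spermatogonial markers 13 were lower and 1 higher, beside 16% and 9.15% of all genes. The higher gene was Id4, known from spermatogonial stem cells, with 197 CPM in culture (183 to 212) and 164 CPM at 14 dpp (152 to 177), against 13.2 and 10.1 CPM. In the replication and mitosis list 14 of 20 genes were lower and none higher, among them Mcm2, of the replicative helicase, with 4.91 and 7.27 CPM against 154 and 161. Top2a, the topoisomerase of condensing chromosomes, differed by less than 2-fold, with 318 and 319.9 CPM against 419 and 430.4.

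The meiotic cell cycle list had 3 of 17 genes higher in both libraries and 8 lower, meiotic cohesins had 1 of 6 higher and 2 lower, chromatin and histone genes 4 of 16 higher and 3 lower, and early prophase genes 5 of 15 higher and 6 lower. Of 18 oxidative stress genes 1 was higher and 6 lower, of 15 heat shock genes 3 were higher and 3 lower, and of 13 apoptosis and p53 genes 0 were higher and 1 lower. Of 13 immediate early genes 6, of 13 inflammation genes 2 and of 15 interferon genes 2 were lower, and none higher. Of all genes 9.15% were higher and 16% lower, so that several of these shares lie near that of all genes. With TMM factors the cell cycle list had 5 higher and 7 lower, chromatin and histone genes 5 and 2, and immediate early genes 0 and 4. TMM factors changed the sign of the median of the heat shock list. A gate for spermatogonia held too few cells and was not compared.

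Within the gate the cells differed among themselves. They were put in 4 bins of Ldhc and Fabp9 per 10000 UMIs, under 10, 10 to 20, 20 to 50, and 50 or more, a division chosen after the data were seen. The bins held 69, 55, 60 and 37 cells in culture and 33, 20, 31 and 96 at 14 dpp. Because a member needs 5 UMIs of these genes, a cell under 5000 UMIs cannot enter the lowest bin and a cell under 1000 always falls in the top one. Members under 5000 UMIs numbered 10 in culture, 3 of them in the top bin, and 15 at 14 dpp, 13 of them there. Without them the bins held 69, 50, 58 and 34 cells in culture and 33, 19, 30 and 83 at 14 dpp. Along the bins the X-linked share was 1.18%, 0.555%, 0.442% and 0.163% in culture and 0.911%, 0.769%, 0.578% and 0.166% at 14 dpp. Acr was detected in 2, 12, 28 and 28 cells and in 2, 6, 16 and 73. Sycp3, of the chromosome axis, had 5794, 5076, 4166 and 2631 CPM in culture and 6373, 5520, 4384 and 2227 at 14 dpp, and Dazl 2449, 2398, 1967 and 773 and 3284, 2929, 2323 and 680. Those levels were lowest in the top bin. Piwil1 had 37.5, 93.8, 263 and 643 CPM in culture and 34.7, 89.7, 253 and 697 at 14 dpp, and Ybx2 142, 205, 356 and 922 and 83.7, 155, 376 and 1103. Piwil1 thus had its highest level in the top bin and a log2 ratio of culture over 14 dpp of −0.05 over the bins. The meiotic DNA-binding gene Meiob stayed between 408 and 448 CPM in the first 3 bins in culture and had 197 CPM in the top bin.

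**Figure D4:**
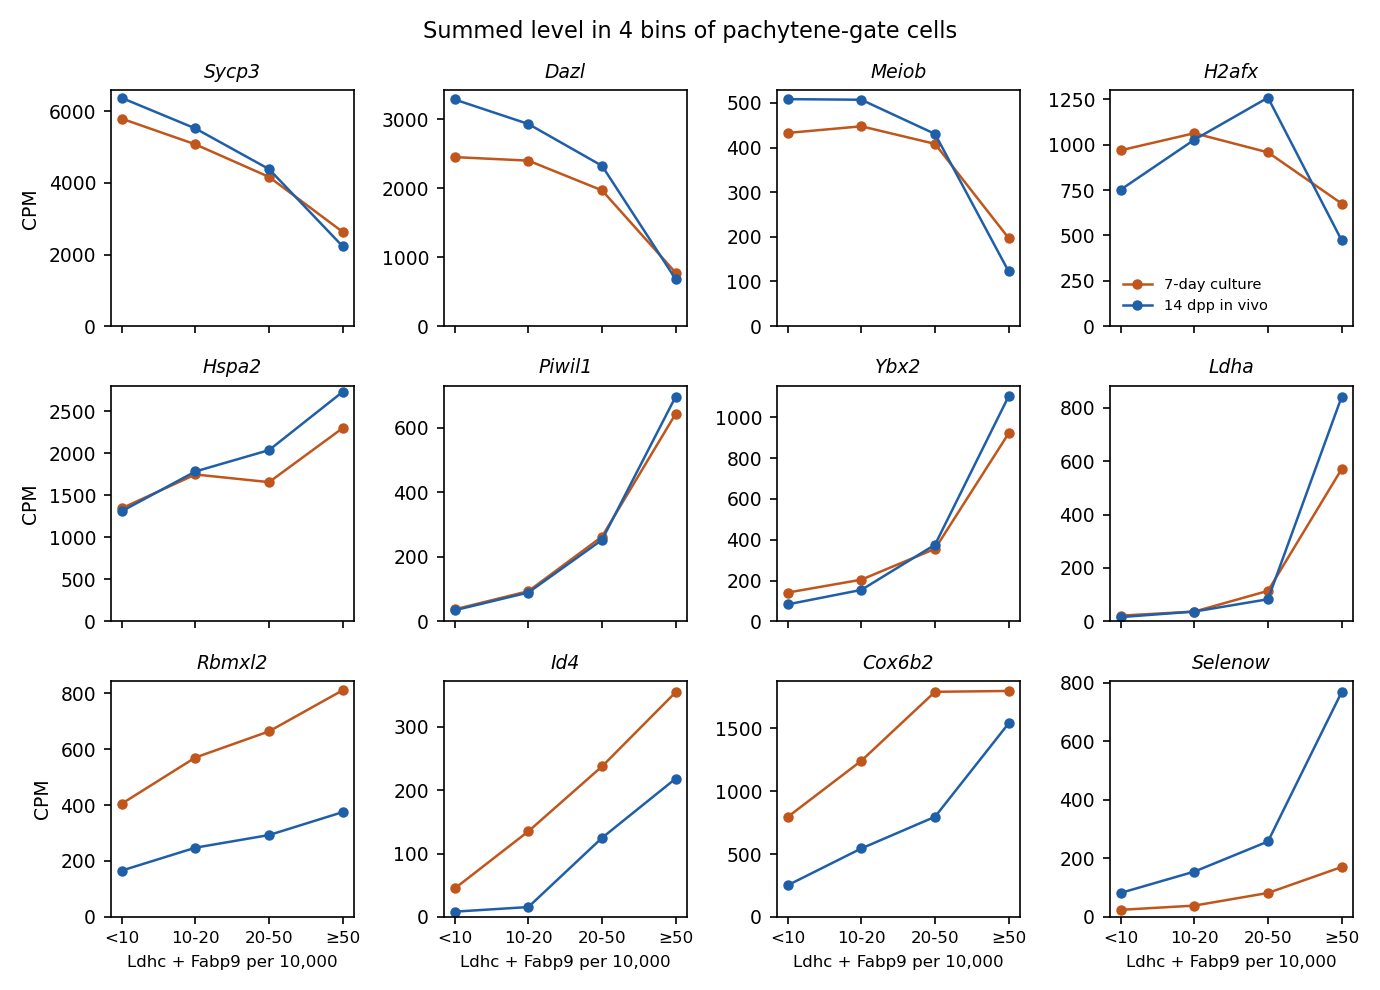
Each panel is 1 gene, with the 4 bins of Ldhc and Fabp9 per 10000 UMIs on the x axis and the CPM of the summed cells of the bin on the y axis, which starts at 0, for the 7-day culture and 14 dpp. Sycp3, Dazl and Meiob are lowest in the top bin in both libraries, Piwil1 runs together in both, Rbmxl2, Id4 and Cox6b2 are higher in culture in every bin and Selenow is lower in culture in every bin.

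A second axis was Meig1 and Rsph1 per 10000 UMIs, which the gate had not read. These are the genes with the highest ratios of the gate over early prophase cells, so their order along the gate genes was partly set by that choice and is a description. In bins of under 40, 40 to 60 and 60 or more, chosen after the data were seen, there were 116, 73 and 32 cultured cells and 60, 38 and 82 cells at 14 dpp. The X-linked share was 0.960%, 0.399% and 0.129% in culture and 0.866%, 0.422% and 0.147% at 14 dpp. At a matched bin Ldhc was lower in culture, with 274, 887 and 3454 CPM against 385, 1744.5 and 5553, while Fabp9 was close, with 888, 2481 and 3990 CPM against 942, 2625 and 4022.5. Ldhc is a gate gene, so this is a description. Piwil1, which the gate did not read, had 76.4, 287 and 624 CPM in culture on this axis. At 14 dpp it had 78.5, 407 and 701 CPM, so it was lower in culture in each bin.

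The 7-day culture of 7 dpp tissue and the 14 dpp testis are of the same total age. By number, the cultured library held the larger share of gate cells, with a log2 ratio of the shares of 0.66 (log-normal interval for a ratio of shares 0.39 to 0.94). With at least 5 UMIs of Ldhc alone the shares were 2.06% and 2.11% and the ratio −0.04. With cells thinned to 3000 UMIs and at least 3 of these from the gate genes, the shares were 4.02% and 2.57%.

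Of 7916 genes compared in the gate, 64 (0.808%) were 2-fold or more higher in the 7-day culture and 171 (2.16%) were lower, and the median log2 ratio was 0.01. Of the 171 lower genes, 75 (43.9%) were among the 989 higher in the gate than in early prophase cells in both libraries, which are 12.5% of all genes compared, and of the 64 higher genes 3 were. X-linked genes were 26 of the 64 higher genes (40.6%) and 7 of the 171 lower ones, against 1.71% of all. With the levels averaged over the 4 bins, each bin weighted equally, 27 genes (0.341%) were higher and 54 (0.682%) lower, of which 23 and 36 were also called on the sums. Over the bins, 6 of the 27 higher genes and 3 of the 54 lower ones were among the 989, and 4 of the 27 (14.8%) and 10 of the 54 (18.5%) were X-linked. In early prophase cells the same comparison of the libraries found 15 of 12341 genes (0.122%) higher and 47 (0.381%) lower.

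The lists of the programme were described on the sums and over the bins. Of all genes compared 0.808% were higher in culture and 2.16% lower on the sums, and 0.341% and 0.682% over the bins. The pachytene onset list had a median log2 ratio of −0.44 on the sums, with 0 genes higher and 3 lower of 35. Over the bins its median was 0.05, with 1 gene higher and 0 lower. For the acrosome list the medians were −0.61 and −0.14, with 4 of 13 genes lower on the sums and 0 over the bins. For the flagellum list they were −0.61 and 0.05, with 4 of 20 genes lower on the sums and 0 over the bins. With 0.682% of all genes lower over the bins, 0 in lists of this size tells little about them. The bins are of the gate's own genes and do not pair like cells. In the upper 2 bins Ldhc had 724 and 3415 CPM in culture against 1069 and 5344 at 14 dpp. The contrast of sums and bins is thus a description. Spink2, Ldha and Crisp2, a gene of the acrosome list, had ratios nearer to 0 over the bins than on the sums. Spink2 had 10.4, 27.01, 65.7 and 226 CPM along the bins in culture and 10.2, 30.9, 61.5 and 471 at 14 dpp, and its ratio was −1.81 on the sums and −0.73 over the bins. Ldha had 21.9, 36.96, 114 and 569.9 CPM and 16.3, 37.1, 83.1 and 840 CPM, with ratios of −1.52 and −0.38. Crisp2 had ratios of −1.21 and −0.15. In the bins of Meig1 and Rsph1 Ldha had 37.3, 129 and 597 CPM in culture and 40.8, 214 and 873 at 14 dpp, Spink2 25.5, 56.9 and 246 against 24.5, 94.99 and 501, and Crisp2 46.6, 99.3 and 414 against 32.6, 134 and 533. On that axis all 3 were lower in culture in the upper 2 bins.

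**Figure D5:**
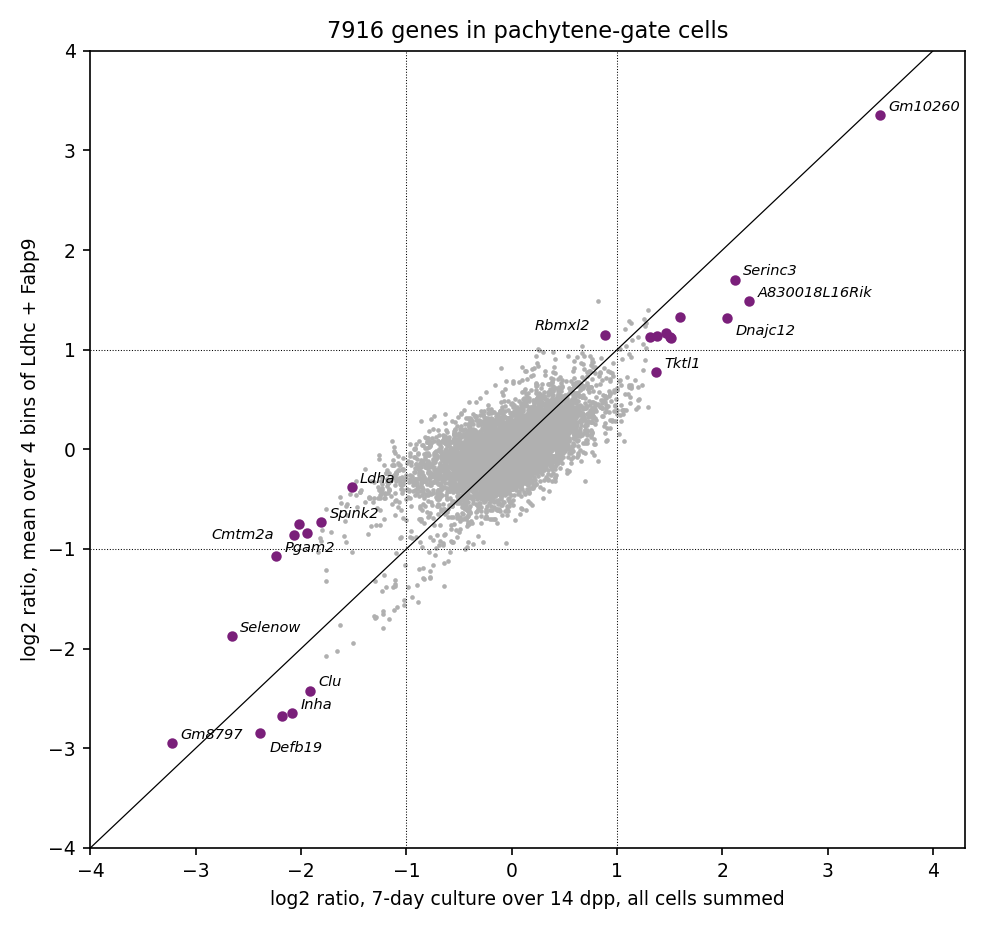
Each point is 1 of 7916 genes, with the log2 ratio of the 7-day culture over 14 dpp from all summed gate cells on the x axis and the same ratio from the mean over the 4 bins on the y axis. Dotted lines mark 2-fold, the solid line marks equal ratios and coloured points are the 20 genes with the highest and lowest summed ratios with Rbmxl2, Galm, Ldha and Spink2; Spink2 and Ldha lie nearer to 0 on the y axis than on the x axis, whereas Clu, Inha and Defb19 do not.

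Some genes were higher in culture in every bin. Rbmxl2, the autosomal copy of Rbmx and a regulator of splicing at pachytene, had 405, 570, 664 and 811 CPM along the bins in culture and 165, 247, 293 and 375 at 14 dpp, a ratio of 0.89 on the sums and 1.15 over the bins. In the bins of Meig1 and Rsph1 it had 472, 718 and 742 CPM against 209.96, 357 and 367. In early prophase cells it was also higher in culture, 139 against 76.8 CPM. Id4 and Cox6b2 were likewise higher in culture in all 4 bins, with ratios over the bins of 0.998 and 0.84. Dnajc12, a co-chaperone, had 103 CPM in culture (93.2 to 114) and 17.4 CPM at 14 dpp (13.7 to 21.98). Its bins had 184, 136, 77.9 and 24.5 CPM in culture and 65.4, 52.6, 24.9 and 2.95 at 14 dpp, and in early prophase cells the libraries had 13.8 and 14.1 CPM. Galm, an enzyme of galactose metabolism, had 128 CPM in culture (117 to 139.9) and 45.3 CPM at 14 dpp (39.1 to 52.3), with 3.21 and 3.05 CPM in early prophase cells, and was higher in culture in all 4 bins. Serinc3, a membrane protein, had 199.8 and 38.3 CPM, and A830018L16Rik 299 and 54.8. Serinc3 was higher in culture in early prophase and Sertoli-gate cells as well, with 212 against 56.2 and 546 against 156 CPM. The X-linked 1700080O16Rik, Xlr, Ap1s2 and Tktl1 and the autosomal Marc2 and Triml2 completed the 10 highest ratios, from 1.37 to 1.60.

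In the other direction, Selenow, a small selenoprotein, had 80.95 CPM in culture (72.01 to 90.7) and 564 CPM at 14 dpp (542 to 588). Along the bins it had 23.9, 38.4, 81.7 and 170.4 CPM in culture and 81.7, 155, 258 and 768 at 14 dpp, so it was lower in culture in each, and in early prophase cells it had 61.9 and 152 CPM. Art3, an ADP-ribosyltransferase of the testis, was lower in culture in all 4 bins as well, with a ratio of −1.76 on the sums and −1.21 over the bins. Pgam2, Cmtm2a, Cmtm2b and Rbakdn had ratios of −2.24, −2.06, −1.95 and −2.02 on the sums and −1.07, −0.86, −0.84 and −0.75 over the bins. In the top bin Rbakdn had 446 CPM in culture and 856 at 14 dpp, and Pgam2 47.9 and 164. That bin has no upper limit, and the libraries were not matched in it. The gate gene Ldhc had 3415 CPM there in culture and 5344 at 14 dpp, and Fabp9 4059 and 3999.

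Of the 10 lowest genes Defb19, Cst12, Inha and Clu are genes of Sertoli cells, where they had 7763, 6072, 2109 and 7355 CPM at 14 dpp, against 114, 91.1, 59.1 and 127 in the gate. Over the bins 44 of the 54 lower genes (81.5%) were higher in Sertoli-gate cells than in the gate at 14 dpp, against 39.1% of all genes compared. On the sums it was 33 of the 171 lower genes (19.3%), and 43 of the 64 genes higher in culture (67.2%). Early prophase cells of the same libraries had the same order for Defb19, 7.65 and 78.6 CPM, and for Clu, 41.6 and 90.2 CPM. Their part in the differences was not tested.

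The extremes of both ends are uncertain as genes. Gm10260, with 124 and 1.94 CPM, matches Rps18 at 99.1% over 545 bases, and Gm8797, with 26.4 and 330.3, matches Gm1821 at 98.7% over 392 bases. Each differed between the libraries in the same direction in early prophase cells, 195 and 4.62 and 10.9 and 114 CPM. Cmtm2a shares 151 identical bases with Gm45711, and A830018L16Rik 129 bases at 96.1% identity with Timm17b.

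For some genes the gate and early prophase cells gave unlike ratios of the libraries. Cdkn2a, the tumour suppressor locus of p16 and p19, had 19.8 CPM in early prophase cells in culture and 235 at 14 dpp, and 1.64 and 12.4 in the gate. Spata7 had 143 and 520.0 CPM in early prophase cells, but 66.2 and 65.4 in the gate. Tmem267 had 47.1 and 229 CPM and 45.5 and 80.9. Ccng1, a p53 target, was lower in culture in early prophase cells, 66.5 and 126 CPM, and higher in the gate, 33.8 and 12.8 CPM, with ratios in the gate of 0.94 on the sums and 0.49 over the bins. Along the bins Ccng1 had 68.7, 49.8, 19.7 and 2.13 CPM in culture and 34.7, 37.1, 9.98 and 6.64 at 14 dpp, lower in culture in the top bin. Ddit4, a stress gene, had 10.02 and 27.1 CPM before and 13.1 and 6.30 in the gate. Erich2, C2cd6, Dnaaf1, Slain1 and Dgcr6 were lower in culture in the gate by log2 ratios of −1.59, −1.81, −1.18, −1.17 and −1.19, with 0.03, −0.28, 0.26, 0.21 and 0.20 in early prophase cells. Over the bins they were −0.87, −0.92, −0.34, −0.44 and −0.32. With a minimum of 3 UMIs of Ldhc and Fabp9 in place of 5, the ratio in the gate moved from −0.94 to −1.72 for Cdkn2a, from 0.02 to −0.70 for Spata7 and from −0.71 to −1.22 for Tmem267. Other settings moved that of Cdkn2a to between −2.34 and −0.42, that of Ccng1 to 0.31 with Ldhc alone, and that of Ddit4 to −0.01 with up to 1% of Sertoli genes allowed. The differences between gates were not tested.

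Inflammation genes, which the series title concerns, had few UMIs in these cells. Of 34 inflammation genes 1 had enough UMIs in the gate to be compared, with a ratio of 0.57 and no 2-fold difference, and the 34 together had 94.0 CPM in culture and 42.4 CPM at 14 dpp. In early prophase cells the same sum was 246 and 248 CPM, and in Sertoli-gate cells 1211 and 428 CPM. Of 27 interferon response genes 7 were measured and 2 were higher in culture, against 0.808% of all genes, with a median of 0.66 on the sums and 0.41 over the bins. These were Ifitm3, with 18.3 and 2.91 CPM, which was also the 1 gene higher over the bins, where 0.341% of all genes were, and H2-D1, a class I histocompatibility gene, with 171 CPM in culture (158 to 185) and 63.7 CPM at 14 dpp (56.3 to 71.9). Ifitm3 had 7.28, 4.26, 40.4 and 14.9 CPM along the bins in culture, and its highest bin was also the highest for the myoid gene Acta2, 105 CPM, and the stromal genes Mgp, 64.8, and Col1a1, 34.7. The part of such RNA in its difference was not tested. The minimum of UMIs for a measured gene was read on both libraries together, and most UMIs of Ifitm3 came from culture. Its place among the 7 measured genes thus depended on its level in culture. For this reason the 2 of 7, and the 1 over the bins, cannot be weighed against the shares of all genes. In early prophase cells H2-D1 had 193 and 116 CPM, and along the bins it had 292, 182, 163 and 46.9 CPM in culture and 212, 161, 113 and 14.4 at 14 dpp. H2-D1 shares 148 bases at 95.3% identity with a transcript of Cflar and has near copies within its family, so its counts are uncertain. Of 17 immediate early genes 5, and of 18 heat shock genes 14, were measured, and none differed by 2-fold either way. The immediate early list had a median of 0.74 on the sums and 0.78 over the bins, and its genes summed to 128 CPM in culture and 61.3 CPM at 14 dpp. In early prophase cells the sum was 416 and 366 CPM, and in Sertoli-gate cells 8792 and 988 CPM, and the part of Sertoli RNA in the difference was not tested. The heat shock list had a median of −0.11 on the sums.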

How the data were processed

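The authors deposited raw UMI counts per gene and barcode, 1 matrix per library, made with Cell Ranger 3.0.2 and the mm10 build per the submitters' processing notes. The 4 libraries had 34491701 to 60829941 UMIs. Per library and gate, counts were summed over cells and scaled to CPM with exact Poisson intervals, and for a share of cells the Clopper-Pearson limits at 95% are given. A gene was compared with at least 50 UMIs in the groups compared together, and called at 2-fold or more of log2(CPM + 10). The labels' protocols give 1 library per group, so nothing was tested, and intervals cover counting error only. Chromosomes were taken from GENCODE by gene identifier. Promoter windows are RefSeq's. Near copies were searched with BLAST 2.17.0+ in the last 600 bases of each gene's longest transcript. The ratio code was checked on simulated data.

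The members, gene lists and named genes were chosen with earlier results of these data known. Named genes are list members, the 10 highest and 10 lowest ratios of the 7-day culture over 14 dpp, the 10 each way whose ratio differs most from that in early prophase cells, the 15 higher and 10 lower against early prophase cells, and the pairs of X-linked and autosomal genes. Genes outside these are the X-linked genes with the most UMIs. Alternatives were other gate minimums, Sertoli gene limits, filters, pseudocounts, UMI minimums, doublets removed with Scrublet (scanpy 1.11.5) and TMM factors (edgeR 4.0.16). Python 3.11.15 and R 4.3.3 were used.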

Additional observations from a re-analysis of the deposited data

Results flagged for a closer look

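Of 62 genes named by rank, 8 had opposite signs of the log2 ratio of pachytene-gate over early prophase cells in the libraries, and in 4 of these the counting intervals of the gates did not overlap in either library. Marc2, a mitochondrial reductase, had 0.4518 in the 7-day culture and −1.29 at 14 dpp. Triml2 had 0.4444 and −0.3403. Clu, a Sertoli cell gene, had −0.502 and 0.4515, and Tmsb4x, an X-linked actin-binding gene, had −2.324 and 0.2056. With 1 library each the difference was not tested. The other 4 were Ap1s2, Inha, Ddit4 and Slain1, where the intervals overlapped in at least 1 library.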

How the results depend on the processing

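The X-linked share of the gate (0.584% in the 7-day culture and 0.359% at 14 dpp) remained below that of early prophase cells (2.69% and 2.62%) under each gate alternative. It was 0.7751% and 0.5132% with a minimum of 3 UMIs of the gate genes, 0.4562% and 0.2974% with 10, and 0.5537% and 0.324% with at least 3 UMIs and 5 per 10000. It was 0.383% and 0.2791% with Ldhc alone, 0.5012% and 0.3236% with Fabp9 alone, 0.7155% and 0.6142% with Sertoli genes under 1%, and 0.3096% at 14 dpp with these under 0.1%. Without Scrublet calls it was 0.5626% and 0.3403%, and with cells weighted equally 0.6272% and 0.4201%.

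The share of cells in the gate was 5.745% and 3.424% with a minimum of 3, 3.239% and 2.382% with 10, 2.057% and 2.114% with Ldhc alone, and 3.769% in culture with Fabp9 alone. The log2 ratio of the shares was reversed with Ldhc alone, −0.03928, and the cause was not tested. Genes higher and lower in culture numbered 39 and 86 with Ldhc alone, 220 and 395 with a pseudocount of 1 CPM, 9 and 51 with 30 CPM, and 27 and 54 over the bins, an alternative chosen after seeing the data, and 37 were higher with a minimum of 200 UMIs. Against early prophase cells 3607 genes were lower with a pseudocount of 1 CPM, and 569 were higher and 716 lower with 30 CPM. Of the other 1088 values for single genes and lists, 74 moved by 0.5 or more on the log2 scale. The sign changed in 47, of which 8 moved that far, and in 0 of those 2-fold or more apart. The largest such move of a list was the spermatogonia median of culture over 14 dpp, from 0.25 to −0.85 with a minimum of 3 UMIs. No paired analysis was possible because each group has 1 library.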
